A study of Drosophila melanogaster with 8 samples.

Results

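Copying the genome begins at origins, where the origin recognition complex (ORC, subunits Orc1 to Orc6) marks DNA and, with Cdc6 and Cdt1, loads the ring of MCM proteins that becomes the replicative helicase. At the fork, replication protein A coats the single strands, the sliding clamp PCNA holds the polymerases on DNA, and ribonucleotide reductase supplies the deoxynucleotides. In Drosophila larvae most growth runs through endoreplication, rounds of DNA synthesis without division, while imaginal discs and neuroblasts divide; in adults, germline cells divide and the follicle cells of the ovary amplify eggshell genes.

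The genes described here are Orc1, Orc2 and Orc5 of the ORC, Mcm2, Mcm5, Mcm7 and dpa (the fly Mcm4 gene) of the helicase, RPA1 (the large subunit of replication protein A), PCNA, and RnrL (the large subunit of ribonucleotide reductase). Members were taken by gene symbol from the series' probe table. Of these 10 genes, 9 had a spot paired with that gene alone, 1 spot each, among 10609 genes in all. Mcm7 was not analysed here, since no spot used here was paired with it alone. The sources do not say how well a spot separates related copies, which bears on PCNA, since the fly genome also holds PCNA2.

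Each of the 8 spotted arrays held adult RNA in one channel and larval RNA in the other, both from Canton S, a wild-type fly strain, and each a mix of stages, with no sex stated. Adults were in channel 1 on 4 arrays (replicates 2, 4, 5 and 7) and larvae on the other 4 (replicates 1, 3, 6 and 8). The samples were portions of a single homogenate, each taken separately through extraction, and the stated purpose was to assess technical error. The p-values below therefore measure the technical spread between arrays and not the spread between animals.

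Values are log2 ratios of the 2 channels, centred on each array at the median of the gene spots and reversed in sign where adults were in channel 1; this is called the turned ratio. The sources used here do not name the numerator. A positive turned ratio may therefore stand for more adult or for more larval RNA, and results are given by side with no stage attached. A difference in turned ratio cannot tell fewer cells of a type from less RNA per cell, as whole animals were mixed. An error after ± is the SD of the 8 arrays (n = 8) where no other n is given, adjusted p-values are Benjamini-Hochberg values of limma's moderated test over all 10609 genes, and the threshold is 0.05.

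Before turning, Pearson's r over all 20000 spots was -0.81 to -0.51 between arrays of unlike orientation and 0.39 to 0.89 between arrays of like orientation, so no pair of arrays was identical. The spread of the turned ratio over gene spots was smallest on replicate 1 (SD 0.57) and largest on replicate 7 (SD 0.96). In the fit, 57.1% of all genes passed the threshold, of which 3099 were positive (29.2% of all genes) and 2958 negative (27.9%). That split was 2049 and 3690 with arrays centred on all spots, where the median of all genes was -0.15 in place of -0.012, and 1034 and 6029 with values as deposited, where it was -0.45.

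Of the 9 measured replication genes, 4 passed the threshold on the positive side (Orc5, RPA1, RnrL and PCNA), 3 on the negative side (Mcm5, Orc2 and Mcm2), and 2 did not pass it (Orc1 and dpa). Subunits of a single complex stood on opposite sides, Orc5 and Orc2 of the ORC. The 7 calls of 9 stand beside 57.1% of all genes, and the members' median turned ratio was 0.011, beside -0.012 for all genes. The differences were small: 0 of the 9 genes reached an absolute turned ratio of 1, a 2-fold difference, beside 9.36% of all genes, and 3 reached 0.5, beside 29.7%. Values had the same sign on all 8 arrays for 5 of the 9 genes, beside 41.7% of all genes. With values as deposited, 0 positive and 5 negative genes were past the threshold, and with arrays centred on all spots 3 and 4.

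**Figure D1:**
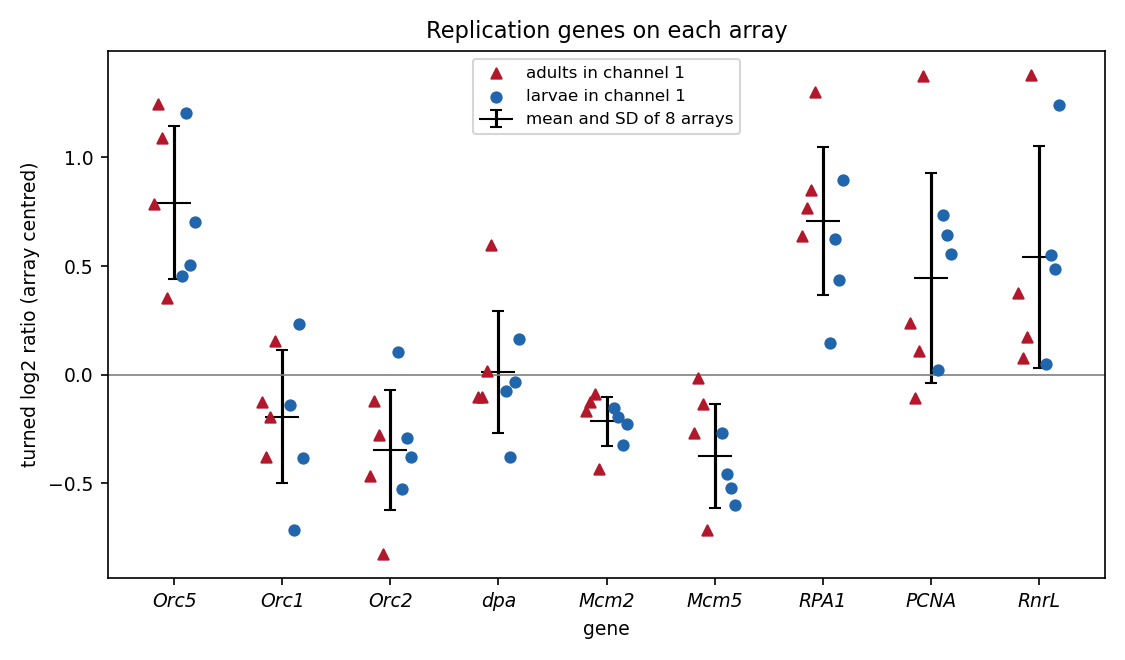
Turned log2 ratio (vertical axis) of each of the 9 measured replication genes (horizontal axis) on the 8 arrays, as triangles for arrays with adults in channel 1 and circles for arrays with larvae in channel 1, with the mean and SD of all 8. Orc5, RPA1 and RnrL lie above 0 on all 8 arrays and Mcm2 and Mcm5 below 0 on all 8, while the highest values of PCNA, RnrL, RPA1 and dpa are all from one array, replicate 7.

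The ORC subunits come first. Orc5, an ATP-binding subunit of the complex, had turned ratios of 0.79, 1.24, 1.09 and 0.35 on the arrays with adults in channel 1 and of 0.45, 1.21, 0.50 and 0.70 on those with larvae in channel 1. All 8 values were positive, the lowest on replicate 7 and the highest on replicate 4. Their mean was 0.79 ± 0.35, a 1.73-fold difference, with a 95% interval of 0.53 to 1.05 and an adjusted p of 0.000219. This was the largest absolute ratio of the 9 genes and higher than that of 86.2% of all genes.

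Orc2, a core subunit, had turned ratios of -0.47, -0.12, -0.28 and -0.83 on the arrays with adults in channel 1 and of 0.10, -0.53, -0.29 and -0.38 on those with larvae in channel 1. All but replicate 1 were negative, and replicate 7 was the lowest. The mean was -0.35 ± 0.28 (95% interval -0.57 to -0.12, adjusted p = 0.0133 in limma).

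Orc1, the subunit with the complex's main ATPase activity, had turned ratios of -0.12, -0.38, -0.20 and 0.16 on the arrays with adults in channel 1 and of -0.14, -0.72, 0.23 and -0.39 on those with larvae in channel 1. These fell on both sides of 0, with 6 negative and 2 positive. The mean of -0.20 ± 0.31 did not pass the threshold (95% interval -0.44 to 0.05, adjusted p = 0.148 in limma), and it was -0.12 without replicate 3. Brightness was taken as the mean log2 of the whole numbers whose ratio each value is, which can only understate it, since shared factors cancel. By that bound Orc1 stood at percentile 2.14 of all genes and Orc5 at percentile 93.2. After a loess curve against brightness was removed from each array, Orc1 stood at -0.25 with an adjusted p of 0.00757, and its adjusted p ran from 0.00211 to 0.437 over the 20 alternatives.

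Within arrays, Orc5 exceeded Orc2 on 8 of 8, by 1.14 ± 0.42, and exceeded Orc1 on 8 of 8, by 0.99 ± 0.62. Of the other ORC genes listed, Orc3 stood with Orc5 on the positive side, at 0.56 ± 0.25 (adjusted p = 0.000621 in limma) with all 8 arrays positive. Orc3 exceeded Orc2 on 8 of 8 arrays, by 0.91 ± 0.39. Orc4 did not pass the threshold, at -0.012 ± 0.31 (adjusted p = 0.926 in limma), with replicate 7 apart from the rest at -0.71. These pairs were chosen after their values were seen, so the differences are given as a description.

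Of the 3 measured helicase members, Mcm5 and Mcm2 passed on the negative side and dpa did not pass. Mcm5, a subunit of the ring at the gate through which DNA enters, had turned ratios of -0.27, -0.018, -0.14 and -0.71 on the arrays with adults in channel 1 and of -0.27, -0.46, -0.52 and -0.60 on those with larvae in channel 1. All 8 were negative, with replicate 7 lowest and replicate 4 nearest to 0. The mean was -0.37 ± 0.24, a 1.30-fold difference (95% interval -0.58 to -0.17, adjusted p = 0.00582 in limma).

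Mcm2, its neighbour at that gate, had turned ratios of -0.17, -0.13, -0.089 and -0.44 on the arrays with adults in channel 1 and of -0.15, -0.19, -0.33 and -0.23 on those with larvae in channel 1. All 8 were negative and lay closer together than those of any other of the 9 genes. The mean was -0.22 ± 0.11, a 1.16-fold difference (95% interval -0.39 to -0.04, adjusted p = 0.0340 in limma). The call ended without replicate 2, 4, 5, 6 or 8 and under quantile normalization, and the adjusted p ran from 0.0469 to 0.0847 over the 8 fits that leave out 1 array and from 0.00234 to 0.219 over all 20 alternatives. Without replicate 7 the mean was -0.18.

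The gene dpa had turned ratios of -0.10, -0.10, 0.017 and 0.60 on the arrays with adults in channel 1 and of -0.075, -0.38, -0.033 and 0.17 on those with larvae in channel 1. These straddled 0, with replicate 7 the highest. The mean of 0.011 ± 0.28 did not pass the threshold (adjusted p = 0.934 in limma), and its 95% interval of -0.21 to 0.24 bounds the difference relative to the median gene. Without replicate 7 the mean was -0.072, and with values as deposited it was -0.43, close to the all-gene median of -0.45 at that setting.

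Of the other MCM ring genes, Mcm6 was at 0.14 ± 0.16 (adjusted p = 0.174 in limma) and Mcm3 at -0.091 ± 0.29 (0.484), neither past the threshold. Mcm6 exceeded Mcm5 on 8 of 8 arrays, by 0.51 ± 0.26, and dpa exceeded Mcm5 on 7 of 8, by 0.38 ± 0.46, pairs chosen after their values were seen. Mcm10, which binds the helicase as it is activated, stood on the negative side at -0.49 ± 0.28 (adjusted p = 0.00168 in limma), negative on all 8 arrays and lowest on replicate 7, which stood apart at -1.11. Psf2, of the GINS complex that joins the active helicase, was at -0.53 ± 0.35 (adjusted p = 0.00324). Among all 11 measured helicase genes, 4 negative and 0 positive genes passed, beside 27.9% and 29.2% of all genes, with a median of -0.11.

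RPA1, PCNA and RnrL, which act at the fork or supply it, each passed on the positive side. RPA1 had turned ratios of 0.64, 0.77, 0.85 and 1.30 on the arrays with adults in channel 1 and of 0.15, 0.62, 0.44 and 0.89 on those with larvae in channel 1. All 8 were positive, with replicate 1 lowest and replicate 7 highest. The mean was 0.71 ± 0.34, a 1.63-fold difference (95% interval 0.48 to 0.94, adjusted p = 0.000209 in limma). The smaller subunits of the same trimer were not past the threshold, with RPA2 at 0.035 ± 0.28 (adjusted p = 0.791) and RPA3 at 0.099 ± 0.31 (0.456), both named after their values were seen.

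RPA1 and Mcm2 are next to each other on the chromosome, with 0 genes between them in the RefSeq table of Release 6. RPA1 exceeded Mcm2 on 8 of 8 arrays, by 0.30 to 1.74 and by 0.92 ± 0.40 on average. This pair was picked after the values were seen, so no test is given.

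PCNA had turned ratios of 0.24, -0.11, 0.11 and 1.37 on the arrays with adults in channel 1 and of 0.019, 0.74, 0.64 and 0.56 on those with larvae in channel 1. Replicate 7 was far above the others, and replicate 4 was the only negative value. The mean was 0.45 ± 0.48, a 1.36-fold difference (95% interval 0.11 to 0.78, adjusted p = 0.0260 in limma), and the SD exceeded the mean. Without replicate 7 the mean was 0.28. The call ended without replicate 3, 6 or 8 and with arrays centred on all spots, and the adjusted p ran from 0.00352 to 0.956 over the 20 alternatives. By the same lower bound on brightness, PCNA stood at percentile 8.02 of all genes.

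RnrL had turned ratios of 0.38, 0.077, 0.17 and 1.38 on the arrays with adults in channel 1 and of 0.047, 0.55, 0.49 and 1.24 on those with larvae in channel 1. All 8 were positive, with replicates 7 and 8 well above the other 6. The mean was 0.54 ± 0.51, a 1.46-fold difference (95% interval 0.19 to 0.89, adjusted p = 0.0126 in limma). The call held in all 8 fits that leave out 1 array, with means from 0.40 to 0.63. The other deoxynucleotide genes measured, Ts (thymidylate synthase, -0.15 ± 0.24) and dnk (deoxynucleoside kinase, 0.063 ± 0.42), did not pass the threshold and were named after their values were seen.

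Placed in order, the mean turned ratios ran from Orc5 through RPA1, RnrL, PCNA, dpa, Orc1, Mcm2 and Orc2 to Mcm5. Between neighbours in that order, the mean difference within arrays was smaller than its SD over arrays for 7 of 8 pairs. The step that exceeded its SD was from PCNA to dpa, at 0.43 ± 0.39. This SD is the spread of single arrays and not the error of the mean difference. The order among Orc5, RPA1, RnrL and PCNA, and that among dpa, Orc1, Mcm2, Orc2 and Mcm5, therefore varied between arrays. Genes of the former group also fell below genes of the latter on some arrays. On replicate 7 dpa (0.60) was above Orc5 (0.35), and on replicate 1 Orc2 (0.10) was above PCNA (0.019). Whether the mean differences between neighbours depart from 0 was not tested. For dpa and Orc1, for example, dpa was the higher on 7 of 8 arrays, by 0.21 ± 0.26.

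The arrays differed in how far apart they set these genes. From the lowest to the highest of the 9, the turned ratios spanned 0.72 on replicate 1 and 2.21 on replicate 7. Orc5 was the highest on replicates 1 to 5, PCNA on replicate 6 and RnrL on replicates 7 and 8. The spread over all genes was also smallest on replicate 1 and largest on replicate 7. The part of this in the members' values was not tested. With arrays scaled to a common spread all 7 calls stayed, while means moved both ways, to 0.34 for PCNA and 0.83 for Orc5.

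**Figure D2:**
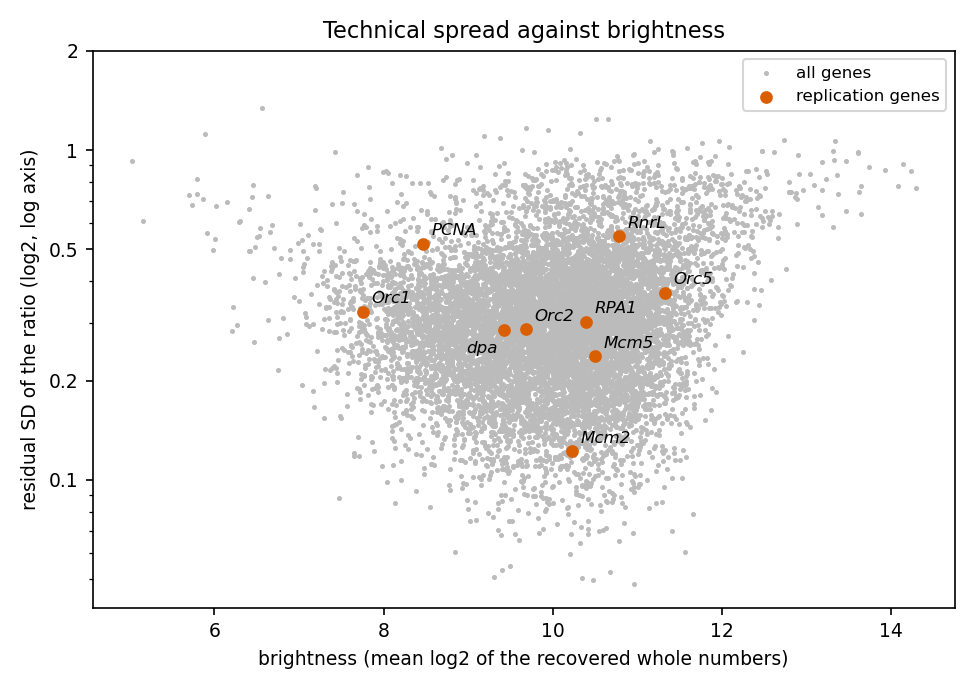
Residual SD of the turned ratio (vertical log axis) against brightness (horizontal axis, mean log2 of the recovered whole numbers) for all 10609 genes in grey and the 9 replication genes in orange. Mcm2 lies at 0.12, near the lower edge of the cloud. RnrL and PCNA lie at 0.55 and 0.52, in its upper part but below its edge, at percentiles 91.3 and 89.7 of all genes.

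Technical error, the subject of the study, differed between these genes. The residual SD after the stage and orientation terms, with 6 residual degrees of freedom, was 0.12 for Mcm2, at percentile 3.18 of all genes, and 0.24 for Mcm5. It was 0.28, 0.29, 0.30, 0.32 and 0.37 for dpa, Orc2, RPA1, Orc1 and Orc5. For PCNA and RnrL it was 0.52 and 0.55, at percentiles 89.7 and 91.3 of all genes. The 95% intervals above follow these spreads, with that of RnrL wider than that of Mcm2, although limma draws the gene variances together.

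The 2 orientations of the array were compared gene by gene. The largest gap among the members was that of RPA1, with 0.89 ± 0.29 on the arrays with adults in channel 1 and 0.53 ± 0.31 on those with larvae in channel 1 (SD, n = 4 each). For Orc5 these means were 0.87 ± 0.39 and 0.72 ± 0.34, for Mcm5 -0.28 ± 0.30 and -0.46 ± 0.14, and for dpa 0.10 ± 0.33 and -0.080 ± 0.22. In the limma fit, 0 of 9 members passed the orientation term at an adjusted or an unadjusted p of 0.05, beside 0% of 10609 genes adjusted and 478 genes unadjusted. All genes but dpa kept their sign in both orientations. Fitted on the 4 arrays of one orientation alone, Orc5 and RPA1 passed the threshold in both, and Orc2 and Mcm2 in neither. Mcm5, PCNA and RnrL passed with larvae in channel 1 and not with adults there. Of all 10609 genes, 4477 passed with larvae in channel 1 and 3057 with adults there, so fewer calls in the second fit were general.

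The lists of replication genes held 56 further genes, of which 45 were measured. Of these, 6 positive and 8 negative genes passed the threshold and 31 did not, with a median of -0.11, beside 57.1% of all genes called. The lists were written with earlier results of these data known, so their counts are a description.

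**Figure D3:**
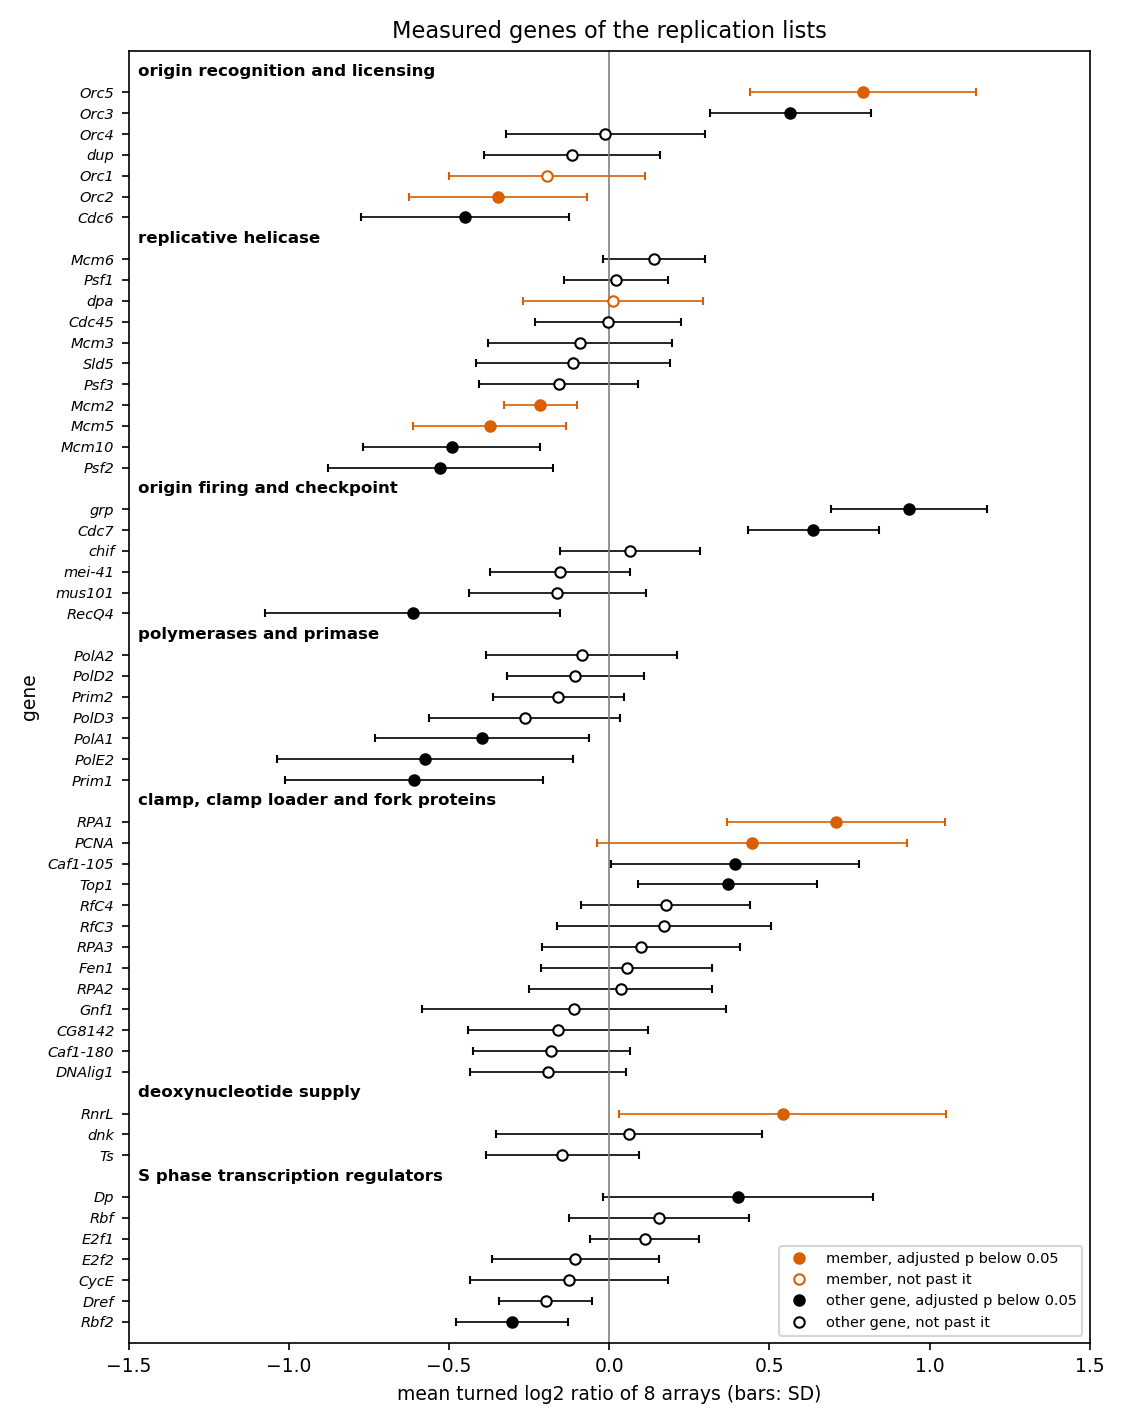
Mean turned log2 ratio with SD over 8 arrays (horizontal axis) for the 54 measured genes of the replication lists (vertical axis), grouped by role, with the 9 members in orange and filled symbols for an adjusted p below 0.05. Polymerase and primase genes lie below 0, from -0.61 to -0.086, while RPA1 and PCNA lie at the upper end of the fork list.

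Genes of origin firing and the replication checkpoint were split. The checkpoint kinase gene grp (fly Chk1) was at 0.94 ± 0.24 (adjusted p = 1.47e-05 in limma), with its 2 spots at 1.01 and 0.86 and replicate 3 apart from the rest, and Cdc7, the kinase that fires licensed origins, at 0.64 ± 0.21 (adjusted p = 0.000147), with its 2 spots at 0.61 and 0.67. RecQ4, a helicase needed to start forks, stood on the negative side at -0.61 ± 0.46 (adjusted p = 0.00433). The other 3 measured genes of that list did not pass the threshold.

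All 7 measured polymerase and primase genes had negative means, and 3 of the 7 passed the threshold, beside 27.9% of all genes on the negative side and 57.1% on either. These were Prim1, the catalytic primase subunit, at -0.61 ± 0.40 (adjusted p = 0.00261 in limma), PolE2, a subunit of the leading-strand polymerase, at -0.58 ± 0.46 (0.00567), and PolA1, the catalytic subunit of polymerase alpha, at -0.40 ± 0.33 (0.0117). The other 4 did not pass. The median of the 7 was -0.26, beside -0.012 for all genes, and the share of all genes with a negative mean is not given here. PolA1 was named after its value was seen.

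In the list of clamp, clamp loader and fork proteins, 2 of the 11 genes other than RPA1 and PCNA passed, both on the positive side, beside 29.2% of all genes. They were Caf1-105, of the chromatin assembly factor that works behind the fork, at 0.39 ± 0.39 (adjusted p = 0.0127 in limma), with replicate 7 apart from the rest at 1.27 and 0.28 without it, and Top1, a topoisomerase, at 0.37 ± 0.28 (0.00826). Of the clamp loader genes, which place PCNA on DNA, RfC3 and RfC4 were at 0.17 ± 0.33 and 0.18 ± 0.26 and Gnf1 and CG8142 at -0.11 ± 0.47 and -0.16 ± 0.28, and none of the 4 passed. Cdc6, of the licensing list, passed on the negative side at -0.45 ± 0.32 (adjusted p = 0.00620). The genes of this paragraph were named after their values were seen.

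Regulators of S phase transcription, the E2F factors, their partner Dp, the retinoblastoma family, Dref and the cyclin gene CycE, counted 7 measured genes, of which 1 passed on each side, beside 29.2% of all genes on the positive and 27.9% on the negative. Dp was at 0.40 ± 0.42 (adjusted p = 0.0157 in limma), with replicate 7 at 1.39 and the others from 0.041 to 0.47; without replicate 7 it stood at 0.27. Rbf2 was at -0.30 ± 0.18 (adjusted p = 0.00905). E2f1 as the mean of its 3 spots was at 0.11 ± 0.17 and did not pass. Its spots disagreed, at -0.14 ± 0.13, 0.70 ± 0.57 and -0.23 ± 0.27. Dref, which binds the promoters of fly replication genes including PCNA, was at -0.20 ± 0.14 with all 8 arrays negative and an adjusted p of 0.0547. These genes too were named after their values were seen.

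Markers of tissues that could hold or dilute the replicating cells also differed between the stages, and their part in the members' values was not tested. The gut list had 8 of 8 genes on the negative side, from -4.23 ± 0.81 for Jon25Bi and -4.07 ± 0.74 for Jon99Fii to -2.79 for the smallest. The glue list had 2 of 3 there, Sgs1 at -2.38 ± 0.76 and Sgs5 at -1.45 ± 0.60. On the positive side stood 5 of 5 flight muscle genes, led by TpnC4 at 3.87 ± 0.50 and fln at 2.35 ± 0.68, 3 of 5 eye genes, led by chp at 1.33 ± 0.41 and trp at 1.06 ± 0.37, and 2 of 3 yolk protein genes, Yp1 at 1.17 ± 0.40 and Yp2 at 0.75 ± 0.28. The lists for tissues with dividing or germline cells were split. The testis list had 5 genes positive and 2 negative of 7, led by Mst98Cb at 3.54 ± 0.37 and Mst77F at 2.96 ± 0.44. Its lowest gene was at -0.47 and its median was 1.52. The ovary and germline list had 3 positive and 4 negative of 8, with a median of -0.20 and the lowest gene at -0.52. Its largest absolute ratios were positive, exu at 2.52 ± 0.39, with replicate 7 apart from the rest, and orb at 1.25 ± 0.40. The neuroblast list had 1 positive (pros, 1.19 ± 0.42) and 2 negative of 4, with wor at -0.60 ± 0.39 and a median of -0.25. The imaginal disc list had 1 positive of 6 (ci, 1.95 ± 0.55) and a median of 0.076. Its gene dpp, at 0.25 ± 0.34, was not past the threshold (adjusted p = 0.0708 in limma, and 0.0133 without replicate 3).

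**Figure D4:**
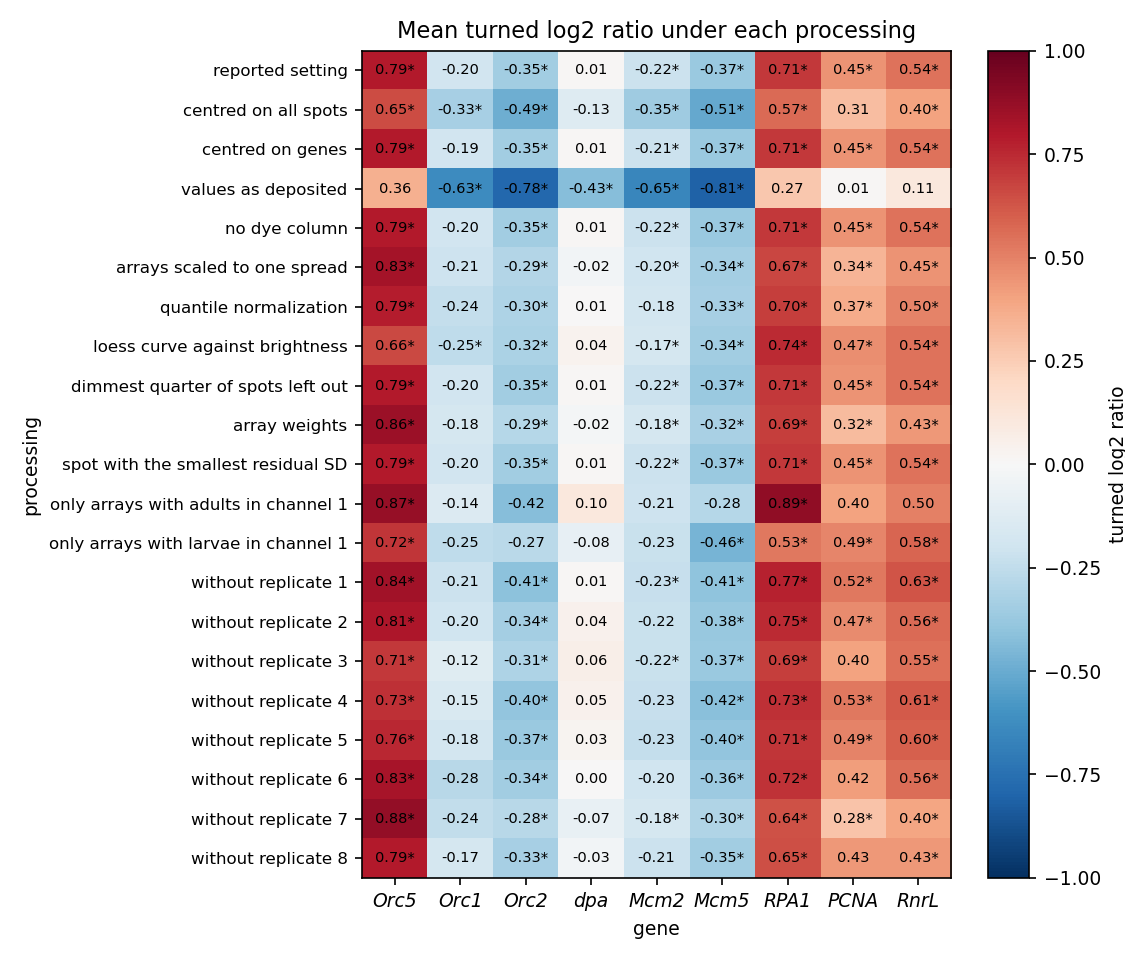
Mean turned log2 ratio (colour and printed value) of the 9 replication genes (columns) under the reported processing and 20 alternatives (rows), with an asterisk for an adjusted p below 0.05. Orc5, RPA1, RnrL and PCNA keep positive values and Orc1, Orc2, Mcm2 and Mcm5 negative values at every setting, while dpa has both signs.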

How the data were processed

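The authors deposited log2 ratios of the 2 channels for 20000 spots on 8 arrays. Quantification used Spot 2.0, per the labels. Dyes, numerator, background handling and filters are not stated. The log2 unit was checked on the values: on every array, raising 2 to the value gave a ratio of integers up to 58096 for 100% of spots. The mean log2 of those numbers is the brightness, a lower bound, as common factors are lost. No background level was used here, so how close a dim spot lies to background is not known. Precision is limited by the number of arrays.

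The probe table paired 12246 spots with 1 gene, 86 with several and left 7668 unnamed. Of the 12246, 11873 matched the RefSeq table of Release 6, used for names and gene order alone. This gave 10609 genes, as the mean of a gene's spots. The fit was limma 3.58.1 under R 4.3.3 (stage and orientation terms, lmFit and eBayes), and it was tested on simulated data. Figures used Python 3.11.15 and matplotlib 3.10.9. The members, lists, tests and 20 alternatives were chosen with earlier results of these data known. Named genes were all members, other listed genes past the threshold with an absolute ratio of at least 0.5, other ORC, MCM and ribonucleotide reductase genes, and the 2 largest ratios of each marker list. Exceptions are stated beside them.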

Additional observations from a re-analysis of the deposited data

Results flagged for a closer look

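Among the 9 members, 45 other measured replication genes and 18 named marker genes, 7 genes had an array that stood far from the other 7, by a gap to the nearest value of more than 0.526 of the range over 8 arrays, a limit that chance exceeds in about 1 of 20 groups. On replicate 7, Dp was at 1.39 with the next value at 0.47, Caf1-105 at 1.27 with the next at 0.48, and the germline marker exu at 3.41 with the next at 2.60. On the same array mus101, a checkpoint gene, was at -0.81 with the next at -0.20, Mcm10 at -1.11 with the next at -0.59, and Orc4 at -0.71 with the next at -0.17. The checkpoint kinase gene grp was at 1.45 on replicate 3, with the next at 0.99. None of the 9 members had such an array, including PCNA, whose replicate 7 value of 1.37 stood above a next highest of 0.74. The limit assumes 8 arrays of like spread. Every flag but that of grp fell on replicate 7, which had the largest spread over gene spots (SD 0.96). The share of all genes past the limit is not given here, so the 7 genes are not set apart from the rest.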

How the results depend on the processing

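Of the 9 members, 8 kept their sign under all 20 alternatives, and dpa did under 13. For members, dropping the orientation term, taking 1 spot per gene or leaving out the dimmest spots could not change a ratio. Each member had 1 spot, bright enough to stay, and each orientation had 4 arrays. With values as deposited PCNA stood at 0.0095 (adjusted p = 0.956 in limma), so its sign was not resolved there. The sign of dpa turned with arrays centred on all spots (-0.13), values as deposited (-0.43), arrays scaled to a common spread (-0.023), array weights (-0.016) and the arrays with larvae in channel 1 alone (-0.080), and ran from -0.072 to 0.061 with 1 array left out. Members past the threshold, 4 positive and 3 negative, were 0 and 5 with values as deposited. They were 2 and 0 on the arrays with adults in channel 1 alone, and 4 and 1 on those with larvae in channel 1 alone. The replication lists, 10 positive and 11 negative, had 6 and 18 centred on all spots, 1 and 38 as deposited, and 6 and 1 with adults in channel 1 alone. All genes had 2049 positive centred on all spots and 1034 and 6029 as deposited. They had 1959 and 1098 with adults in channel 1 alone, and 2435 and 2042 with larvae in channel 1 alone. Centring shifts all genes together, and fits on 4 arrays hold fewer arrays. Leaving out the dimmest 25% of all 20000 spots, unnamed ones included, left 10599 of 10609 genes and all 9 members. Orc1 and PCNA, at brightness percentiles 2.14 and 8.02 of all genes, stayed in, so this setting could not test dim members.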
